A study of Ovis aries with 5 samples.

Results

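IL1A and IL1B, the genes of interleukin 1 alpha and interleukin 1 beta, were described in dendritic cells (DC) of sheep skin lymph. Their probes were found by gene name and description, and the genes were chosen by their log2 differences between CD26+ and CD26- cells, which run in opposite directions. They are 2 of the 819 genes that could be named, and their 3 probes are among 15008 distinct probes. Because the difference between CD26+ and CD26- cells chose them, their values in that comparison are a description without a test.

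The study sorted lymph DC, which carry antigen from the skin to the lymph node, into a CD1b+CD26+ and a CD1b+CD26- fraction. The sorting markers are CD1b, an antigen-presenting molecule for lipids, and dipeptidyl peptidase 4, a surface protease also named CD26. Both subsets came from sheep 10081 and sheep 30066, which gave n = 2 arrays a subset, with 1 array of each subset per sheep. Breed, age and any treatment of the sheep are not given in the sources used here. Sorted-cell RNA was amplified and labelled with Cy3, and each array carried a common reference labelled with Cy5, with no dye swap. By the sample labels this reference is the total of enriched lymph DC, taken from other sheep, whereas the labelling protocol names RNA from a culture of LP-1cl1 cells. It is called total DC here, and this conflict bears on every comparison with it. A further array, the self-hybridisation, held the reference in both dyes.

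All 5 arrays lay on 1 slide, with sheep 30066 in the row of the self-hybridisation and sheep 10081 in the other row, so that the animal and the slide row cannot be told apart. Between 81.1% and 89.5% of probes per array were well above background in Cy3, and 13264 probes were tested. The SD of the log2 ratio over probes ranged from 1.18 to 1.42 on the subset arrays, against 0.29 for the self-hybridisation. No probe was named for the gene of CD26. Of 14 DC markers listed, 5 were named on the array. The probes of CD1, CD86, CD80 and CD40 were well above background on all 5 arrays, while that of CD1B was so on 1. With 2 arrays a subset, the number of arrays sets the precision.

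Interleukin 1 is an early signal of inflammation. Both cytokines bind the same receptor, which acts through the adaptor MYD88 and the transcription factor NF-kappa B, and the antagonist encoded by IL1RN occupies that receptor without signalling. The IL-1 beta precursor is inactive until it is cleaved, typically by caspase-1 in an inflammasome, whereas the IL-1 alpha precursor can already bind the receptor. In skin, both cytokines are known to promote the departure of Langerhans cells, the DC of the epidermis. The arrays measured RNA, not the cleaved or released proteins.

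IL1A was measured by 2 probes of different sequence with 1 spot each, and IL1B by 1 probe with 5 spots. The 3 sequences are shown because the opposite values of the genes rest on how distinct these probes are. They are given as the array files hold them, and capitals mark the stop codon that ends the longest open frame in the IL1B probe.
IL1A first probe: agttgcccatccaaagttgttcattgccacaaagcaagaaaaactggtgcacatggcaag
IL1A second probe: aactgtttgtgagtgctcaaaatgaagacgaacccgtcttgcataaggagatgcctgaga
IL1B probe: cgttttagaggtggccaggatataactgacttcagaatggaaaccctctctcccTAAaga
Each probe has 60 bases and a GC content of 45.0%. The IL1B probe held 18 codons before the marked stop and 3 bases after it, so that it covers the end of an open frame. Both IL1A probes can be read through without a stop in at least 1 frame. The longest run of bases shared by any 2 of these probes was 5. With any other probe of the array, on either strand, the longest shared run was 14 bases for each IL1A probe and 13 bases for the IL1B probe. In the table of sheep RefSeq genes for assembly ARS-UI_Ramb_v3.0, used for names and neighbours only, IL1B and IL1A are adjacent with 0 genes between them. IL37 lies beyond IL1B and CKAP2L beyond IL1A, and neither was named on the array. No genome of the array's design was used, so no coordinates are given.

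IL1A stood near the total DC level in CD26+ cells and lower in CD26- cells. The level is given as the log2 ratio of sample over reference, in which 0 is equality and 1 is a doubling. For the first IL1A probe it was -0.16 on the self-hybridisation. In CD26- cells it was -2.07 in sheep 30066 and -1.64 in sheep 10081. In CD26+ cells it was -0.14 in sheep 30066 and -0.06 in sheep 10081. Both CD26- arrays were low, and the CD26+ arrays lay within 0.10 of the self-hybridisation. The second IL1A probe gave -0.17 on the self-hybridisation, -2.30 and -1.51 in CD26- cells of sheep 30066 and 10081, and -0.39 and -0.06 in CD26+ cells. CD26- cells stood lowest for this probe too. The probes differed from each other by at most 0.25 on an array, less than the distance between the subsets in either sheep.

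IL1B was low in both subsets and lower in CD26+ cells. Its log2 ratio was -0.07 on the self-hybridisation. In CD26- cells it was -1.10 in sheep 30066 and -2.63 in sheep 10081, and in CD26+ cells it was -3.48 in sheep 30066 and -4.18 in sheep 10081. All 4 subset arrays lay below the self-hybridisation. The spots agreed closely: their SD was between 0.04 and 0.06 on 4 arrays (4 or 5 spots used) and 0.15 for CD26+ cells of sheep 10081 (5 spots). These spots are technical repeats on 1 array and are no measure of the spread between sheep.

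**Figure D1:**
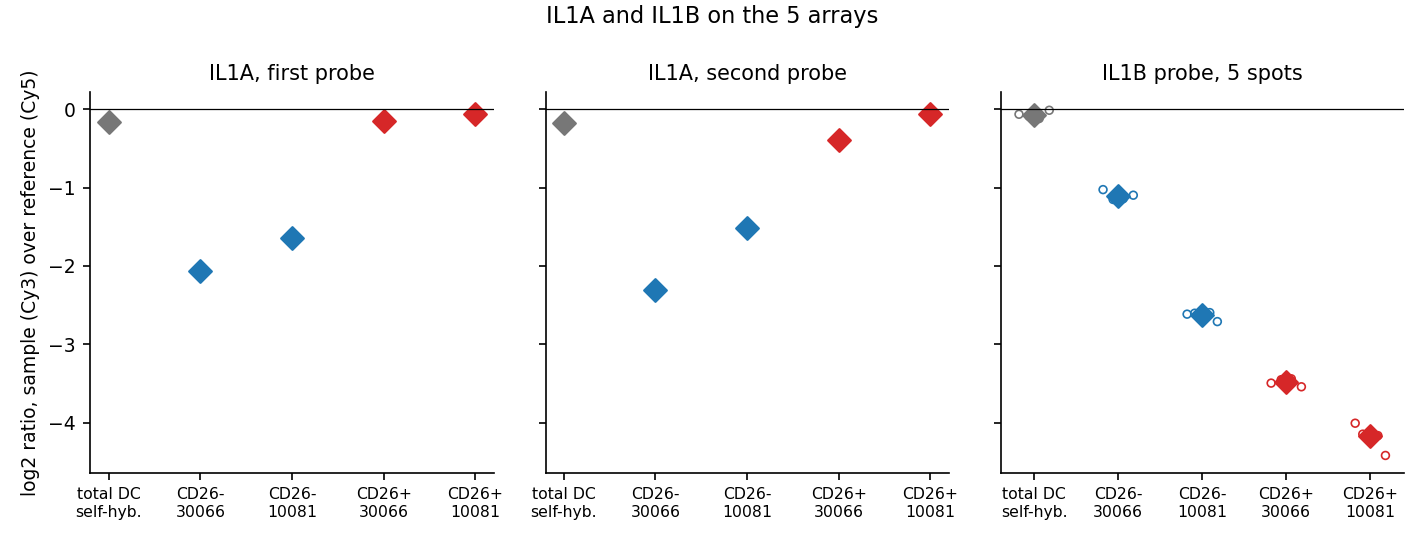
Log2 ratio of sample (Cy3) over reference (Cy5) on each of the 5 arrays for both IL1A probes and the IL1B probe, with grey for the self-hybridisation, blue for CD26- and red for CD26+ cells. Diamonds are the probe's value on an array and open circles are the single IL1B spots. IL1A is near 0 in CD26+ cells and between -2.30 and -1.51 in CD26- cells, while IL1B is lower in CD26+ (-3.48 and -4.18) than in CD26- cells (-1.10 and -2.63).

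The spot signals showed which dye carried these ratios. The Cy5 signal of the reference varied over the 5 arrays by 1.41-fold and 1.33-fold for the IL1A probes and by 1.25-fold for IL1B. The Cy3 signal of the sample varied by 3.74-fold and 4.93-fold for the IL1A probes and by 16.2-fold for IL1B. Before background correction, the first IL1A probe had a Cy3 signal of 808 units in total DC. It was 219 and 283 units in CD26- cells of sheep 30066 and 10081, and 737 and 820 units in CD26+ cells. IL1B had 2075 units in total DC, 1040 and 353 units in CD26- cells, and 189 and 128 units in CD26+ cells. These IL1B signals are means of all 5 spots. On the self-hybridisation and both arrays of sheep 30066, 1 of these spots was flagged as an outlier and left out of the log2 ratio. All 7 spots were well above background in both dyes on each array, and 0 were saturated. The lowest IL1B signal, in CD26+ cells of sheep 10081, was 3.43 times its local background. An offset of 50 units was added to the corrected signals before the ratio was taken, which shrinks the ratios of dim spots. With an offset of 10 the IL1B values of CD26+ cells were -3.77 and -4.70.

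**Figure D2:**
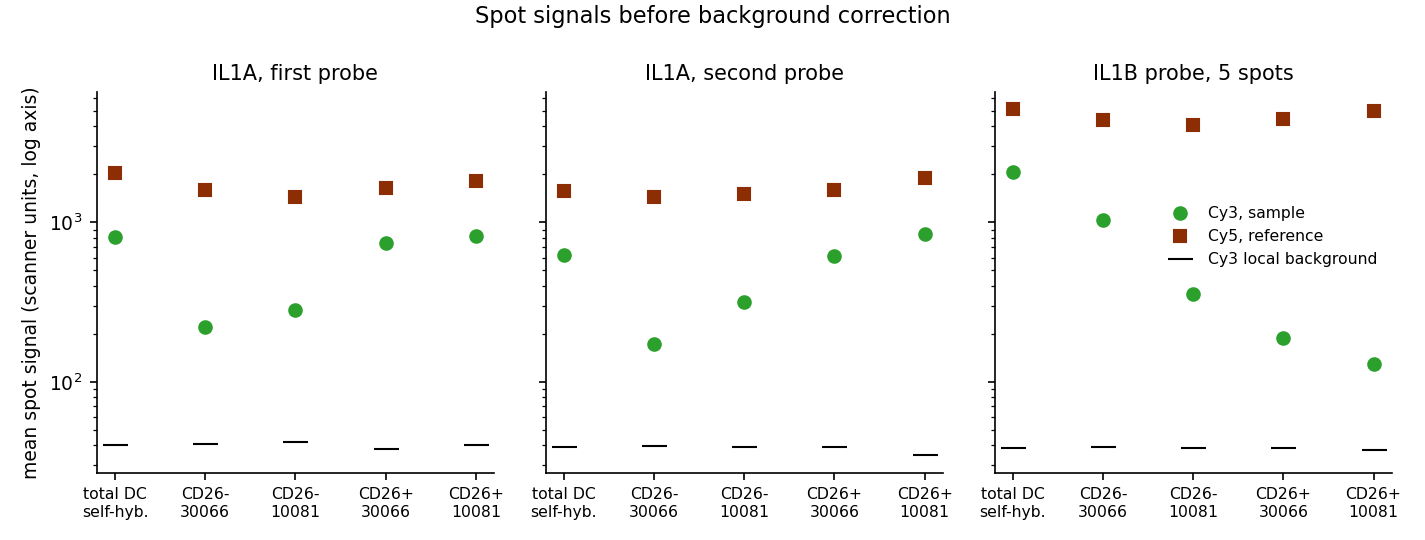
Mean spot signal in scanner units on a log axis, before background correction, for each member probe on the 5 arrays. Outlier-flagged spots are included. Green circles are the sample (Cy3), brown squares the reference (Cy5) and black bars the local Cy3 background. The reference stays within 1.41-fold for each probe while the sample moves by up to 16.2-fold.

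In the comparison between the subsets, IL1A was higher in CD26+ cells by 1.75 (SE 0.36) on the log2 scale, which is 3.37-fold. The difference was 1.93 in sheep 30066 and 1.58 in sheep 10081. The second IL1A probe gave 1.68 (SE 0.44), with 1.91 and 1.45 in these sheep. IL1B stood lower in CD26+ cells, at -1.96 (SE 0.66), or 3.89-fold lower. Its difference was -2.38 in sheep 30066 and -1.54 in sheep 10081. Each gene thus had the same direction in both sheep, with the larger difference in sheep 30066. These values selected the genes, so they, their ranks and their dependence on the processing are a description without a test.

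The size of the IL1A difference depended on the processing, most on the background model, and that of IL1B on which CD26- array was left out. With the model fitted on all spots, including those beside bright specks, the IL1A difference was 1.03. It was then 0.58 in sheep 30066 and 1.48 in sheep 10081. The second IL1A probe was 0.35 and 1.38 under that model. Without the CD26- array of sheep 30066 the IL1B difference was -1.20, and without that of sheep 10081 it was -2.73. Under the 8 ways of processing the arrays, IL1A remained higher and IL1B lower in both sheep, and each was at least 2-fold in both sheep under 7. The exceptions were the model on all spots for IL1A and, for IL1B, scaling between arrays, where sheep 10081 stood at -0.97.

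**Figure D3:**
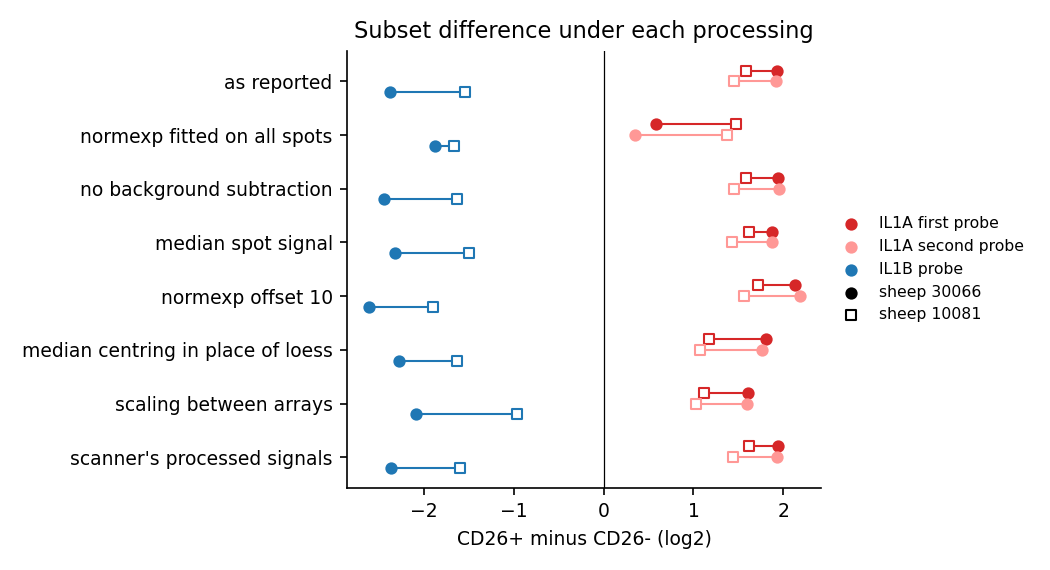
Difference between CD26+ and CD26- cells (log2) of the member probes in each sheep under the 8 ways of processing the arrays. Filled circles are sheep 30066, open squares sheep 10081, and a line joins the sheep. IL1A lies right of 0 and IL1B left of 0 in every row, and IL1A of sheep 30066 is nearest to 0 where the normexp model uses all spots (0.58 for the first probe).

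Against all probes, 2.42% were at least 2-fold higher and 2.97% at least 2-fold lower in CD26+ cells in both sheep, of 12934 with a value in each. Both IL1A probes and the IL1B probe are among these, which the selection fixed. IL1A held rank 183 from the top of the 13264 tested probes with its first probe and rank 215 with its second, and IL1B rank 165 from the bottom. Among the 691 named genes tested, IL1A was 12th from the top and IL1B 12th from the bottom. The named genes at least 2-fold apart in both sheep numbered 13 higher and 27 lower in CD26+ cells. With limma's lmFit and eBayes and Benjamini-Hochberg adjustment over all tested probes, 0 probes (0%) passed an adjusted p of 0.05, while 746 had an unadjusted p under it. The smallest adjusted p was 0.764.

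**Figure D4:**
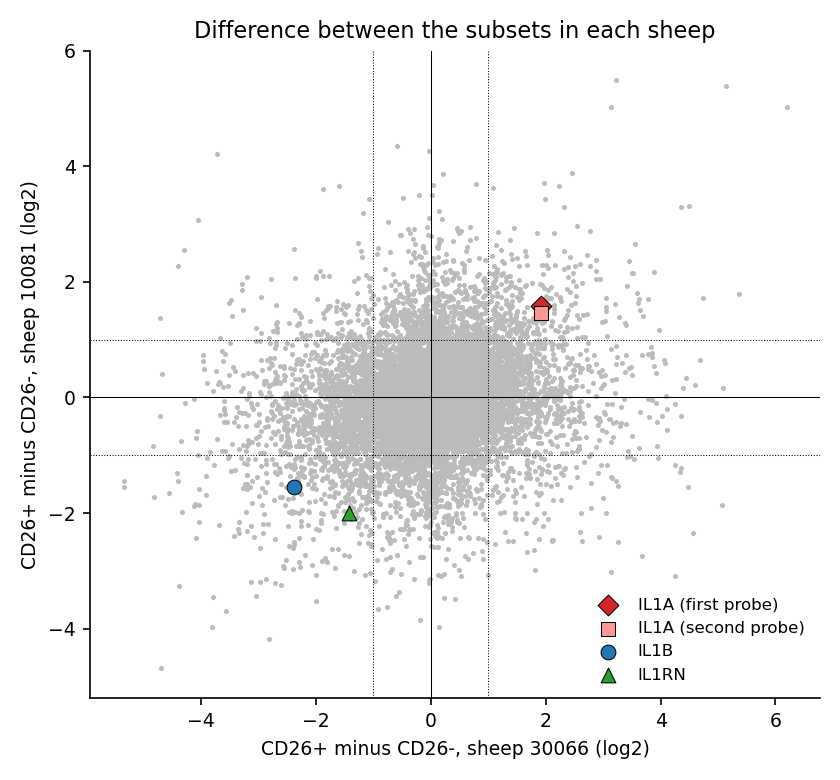
Difference between CD26+ and CD26- cells (log2) in sheep 30066 (horizontal) and sheep 10081 (vertical) for each tested probe (grey), with IL1A, IL1B and the antagonist gene IL1RN marked. Dotted lines mark a 2-fold difference. Both IL1A probes lie in the upper right corner region, and IL1B and IL1RN in the lower left, where both sheep differ at least 2-fold.

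Each subset was then compared with total DC, the self-hybridisation serving as control for the dyes. These comparisons use the arrays on which the genes were chosen and share the self-hybridisation, so they are not independent of the choice or of each other. Total DC is a lone array, so its spread was assumed to be that of the subset arrays. In bulk RNA, fewer cells of a type and less RNA per cell cannot be told apart. By the sample labels the reference was enriched DC of other sheep. A distance from total DC therefore cannot be told apart from differences in animal or cell preparation. IL1A in CD26+ cells stood 0.06 above total DC (SE 0.45, 95% interval -1.14 to 1.26, limma adjusted p = 0.98). It was higher in both sheep, as were 34.3% of probes. The second probe stood at -0.05 (SE 0.54, limma adjusted p = 0.987), so the sign of this small difference was not settled. The first probe also turned to -0.16 with median centring and to -0.07 with the scanner's processed signals. In CD26- cells IL1A was at -1.69 (SE 0.45, 95% interval -2.89 to -0.50, limma adjusted p = 0.386) and its second probe at -1.74 (SE 0.54). IL1A did not pass the test in either subset. By its values CD26- cells came last, with both CD26- arrays below the self-hybridisation. The order of CD26+ cells and total DC was not settled, as the interval reached beyond 2-fold either way.

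IL1B had the largest distance from total DC of the members. In CD26+ cells it stood at -3.76 (SE 0.81, 95% interval -5.93 to -1.59, limma adjusted p = 0.339), which is 13.5-fold lower. That was the 20th lowest of 13204 probes with a value. In CD26- cells it was at -1.80 (SE 0.81, 95% interval -3.97 to 0.37, limma adjusted p = 0.557). The sheep lay far apart there, with -1.03 in sheep 30066 and -2.56 in sheep 10081. IL1B was lower than total DC on 4 of 4 subset arrays, where 38.8% of probes were lower on both CD26+ and 38.2% on both CD26- arrays. It did not pass the test in either subset. By its group means the order of IL1B was total DC, then CD26- cells, then CD26+ cells.

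At least 2-fold lower than total DC in both sheep were IL1B in CD26+ cells, where 8.79% of all probes were, and both genes in CD26- cells, where 7.51% were. In CD26- cells neither gene was 2-fold lower in both sheep with the background model on all spots or with scaling between arrays. IL1A then stood at -0.95 and -0.98, and IL1B at -1.64 and -1.19. In these comparisons too 0 probes passed (0%), with 1491 probes at an unadjusted p under 0.05 for CD26+ and 1401 for CD26- cells. The smallest adjusted p was 0.305 for CD26+ and 0.35 for CD26- cells. A replicate block for the sheep gave limma adjusted p-values for IL1B of 0.216 in CD26+ and 0.274 in CD26- cells, and for IL1A of 0.255 in CD26- cells.

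With the reported processing, differences between the sheep were larger for IL1B than for IL1A. In CD26- cells IL1B was higher in sheep 30066 than in sheep 10081 by 1.53, a distance larger than that of 87.5% of the tested probes. In CD26+ cells the distance was 0.69. For the first IL1A probe sheep 30066 was lower by 0.42 in CD26- and by 0.08 in CD26+ cells, and for the second by 0.79 and 0.33. The median size of this difference over the tested probes was 0.52 in CD26- and 0.54 in CD26+ cells. In both subsets, IL1A was thus lower and IL1B higher in sheep 30066 with the reported processing. This contrast of 1 animal with 1 animal was not tested, and part of it turned with the processing. The background model on all spots gave IL1A in CD26- cells -0.69 in sheep 30066 and -1.54 in sheep 10081. The second probe gave -0.67 and -1.43. Scaling between arrays gave -3.02 and -2.83 for IL1B in CD26+ cells. In CD26+ cells the first IL1A probe turned with median centring and the scanner's processed signals. IL1B in CD26- cells remained higher in sheep 30066 under each way of processing.

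The log2 ratio of IL1A less that of IL1B brings both genes together on each array. It was -0.09 on the self-hybridisation. In CD26- cells it was -0.97 in sheep 30066 and 0.99 in sheep 10081, on either side of 0 with the reported processing. In CD26+ cells it was 3.34 and 4.11. These are balances relative to the reference and do not say which transcript was more abundant, since levels of different probes cannot be compared. With the background model on all spots, CD26- cells of sheep 30066 had -0.69 for IL1A and -0.93 for IL1B. Those of sheep 10081 had -1.54 and -2.51, so the balance in CD26- cells was then above 0 in both sheep.

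The other genes of the interleukin 1 pathway were taken from a list of 90, of which 24 were named on the array and 21 tested. None of the 21 passed the limma test in any comparison. In CD26+ cells 3 of them stood higher and 10 lower in each sheep, and 8 differed in direction between the sheep. Each gene is counted by its brightest probe, and 1 of the 10 lower genes, JUN, stood higher with its other probe. Over all probes, 27.6% were higher and 28.4% lower in both sheep. The median difference of the list was -0.25, against -0.01 for all tested probes, and it was -0.15 without the CD26+ array of sheep 10081. Against total DC the list's median was -0.03 in CD26+ and 0.22 in CD26- cells, and both signs changed with the processing.

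Of the ligands and antagonists, IL1RN and IL18 were measured. IL1RN, the receptor antagonist, was high in CD26- cells, with log2 ratios of 1.71 in sheep 30066 and 2.61 in sheep 10081. It was 0.28 and 0.61 in CD26+ cells and -0.18 on the self-hybridisation, so it lay above total DC in both subsets. Of all probes, 34.3% lay above total DC on both CD26+ arrays. The IL1RN difference between the subsets was -1.72 (SE 0.47), -1.43 in sheep 30066 and -2.00 in sheep 10081. Under the 8 ways of processing it ranged from -1.74 to -1.31. Against total DC it stood 2.34 higher in CD26- cells (SE 0.57, limma adjusted p = 0.367) and 0.63 higher in CD26+ cells (SE 0.57, limma adjusted p = 0.752). In CD26- cells it was at least 2-fold above total DC in both sheep, where 10.1% of probes were. IL1RN thus shared with IL1B the lower level in CD26+ cells, but lay above total DC where IL1B lay below. IL18, a cytokine of the same family, stood at -0.33 (SE 0.39), with 0.07 in sheep 30066 and -0.74 in sheep 10081. The 9 receptors and decoys of the list had 0 probes by name.

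Of 19 genes of processing and release, 5 were measured. The calpain subunits CAPN1 and CAPN2, proteases of a class that can cleave the IL-1 alpha precursor, stood higher in CD26+ cells of each sheep. CAPN1 stood at 0.46 (SE 0.42) and CAPN2 at 0.30 (SE 0.46), neither much larger than its SE. The small calpain subunit CAPNS1 was at -0.55 (SE 1.04). CTSB, a lysosomal protease, and TXNIP, a thioredoxin inhibitor that can bind NLRP3, differed in direction between the sheep. Caspase-1, the enzyme that cleaves the IL-1 beta precursor, was not named on the array.

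Of 29 signalling genes, 5 were measured. MYD88, the adaptor of the receptor, stood at -0.28 (SE 0.42). NFKBIA, the inhibitor of NF-kappa B that this factor itself induces, stood at -0.52, with -0.89 in sheep 30066 and -0.15 in sheep 10081. JUN was at -0.25 with its brighter probe and at 0.38 with its other probe, so its direction was not settled, and that of the brighter probe in sheep 10081 turned under 2 of the 8 ways of processing. FOS and the kinase gene IKBKB differed in direction between the sheep. The other IKBKB probe stood at 0.59, against -0.53 for the brighter one.

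Of 24 genes known to be induced by interleukin 1, 12 were named and 9 tested, while CSF2, SELE and MMP1 were too dim. The neutrophil attractant CXCL8 had log2 ratios of -1.49 and -2.14 in CD26- cells of sheep 30066 and 10081. In CD26+ cells it had -4.12 and -3.87, and on the self-hybridisation -0.05. Its order was therefore that of IL1B, with a difference between the subsets of -2.18. CXCL1, a related attractant, had a difference of -1.03, with -1.57 in sheep 30066 and -0.50 in sheep 10081. SOD2, a mitochondrial superoxide dismutase, stood at -0.65. PTGS2, the inducible cyclooxygenase, and NOS2, the inducible nitric oxide synthase, stood at -0.24 and -0.20, lower in both sheep. TNF went the other way, at 0.67, with 0.25 and 1.09. With the background model on all spots TNF was at 1.92, with 1.61 in sheep 30066 and 2.24 in sheep 10081. IL6, ICAM1 and CSF3 differed in direction between the sheep. These directions are those of the reported processing, and for CTSB, IKBKB, IL6, ICAM1 and CSF3 the sheep shared a direction under 1 or 2 of the 8 ways. Of the 21 genes, IL1RN and CXCL8 stood at least 2-fold lower in CD26+ cells of each sheep, and 0 stood as far above, except that TNF did with the background model on all spots.

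**Figure D5:**
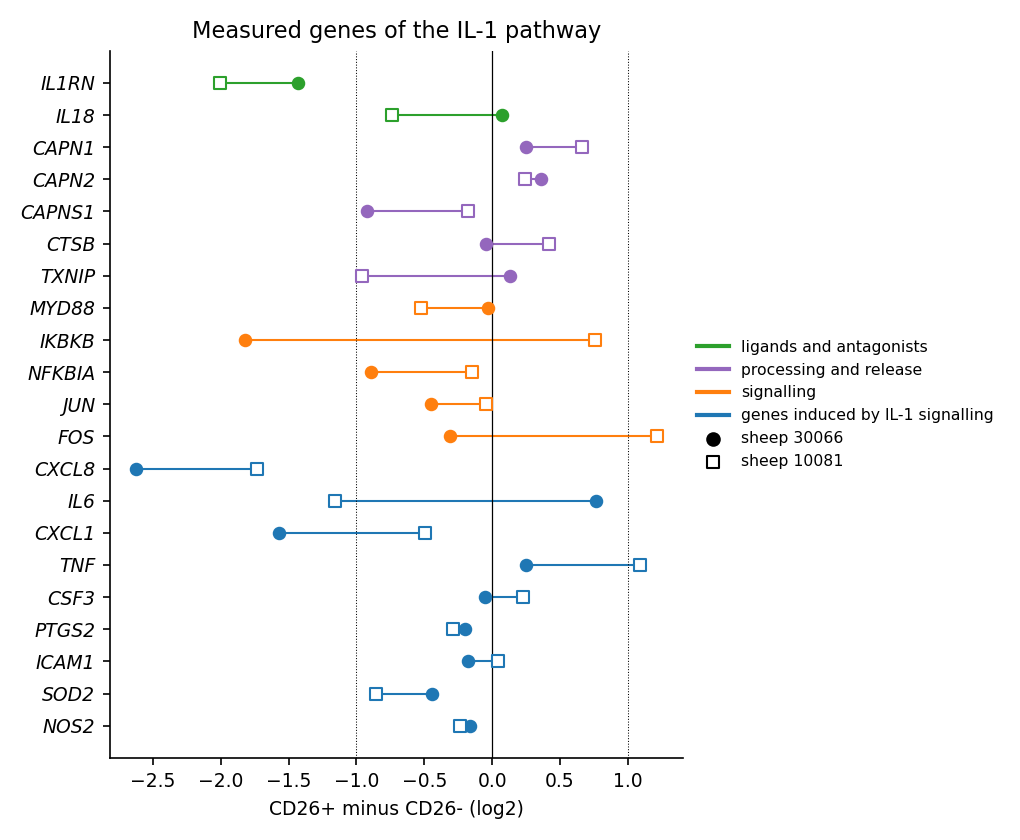
Difference between CD26+ and CD26- cells (log2) for the 21 tested genes of the interleukin 1 pathway, without IL1A and IL1B. Filled circles are sheep 30066, open squares sheep 10081, colours give the role, and dotted lines mark a 2-fold difference. IL1RN and CXCL8 lie left of the 2-fold line in both sheep.

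The genes with the profile most like that of each member were found by the root mean square distance of their log2 ratios, less the self-hybridisation, over the 4 subset arrays among 676 named genes. For IL1B the nearest was CLEC4E, a receptor of the innate immune system also called Mincle, at a distance of 0.21 log2 units. CLEC4E was well above background on 4 of 5 arrays. The next were CXCL8 at 0.48, FABP5, a fatty acid carrier, at 0.53, ARG2, a mitochondrial arginase, at 0.60 and CXCL1 at 0.62. For IL1A the nearest genes were RPS20, a ribosomal protein, at 0.53, the costimulatory molecule CD86 at 0.54, the cytokine IL3 at 0.54, ABHD5, an activator of lipid breakdown, at 0.56, and a gene named MDD2 in the file at 0.57. IL1A and IL1B themselves were 2.80 apart. The 4 arrays share the reference and the slide, and these distances are a description.

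Markers of other cell types that a sorted lymph fraction could hold were set beside these values. Of 13 monocyte and macrophage markers, 4 were tested. Their mean log2 ratio was -0.31 and -0.25 in CD26- cells and -0.68 and -1.28 in CD26+ cells of sheep 30066 and 10081. On the self-hybridisation it was -0.18. This mean joins markers far apart: in CD26- cells of these sheep CHI3L1 was at 2.26 and 2.78, and FABP5 at -2.60 and -3.71. CD14, the monocyte receptor for lipopolysaccharide, had a difference of -1.09, with -0.32 in sheep 30066 and -1.87 in sheep 10081. FABP5, which is in this list and among the genes nearest to IL1B, stood at -1.07, and CHI3L1 at -0.79, which turned to 0.56 with the background model on all spots. LYZ differed in direction between the sheep. Of these 4 markers, 3 were lower in CD26+ cells of both sheep, as were IL1B and 28.4% of all probes. With the reported processing the IL1B difference was larger in sheep 30066 (-2.38 against -1.54), and those of these 3 markers in sheep 10081. The part of these markers in the IL1B result was not tested. Of 8 neutrophil markers, LTF was tested, at -0.10 and well above background on 3 of 5 arrays. The 4 tested DC markers, as IL1A, stood higher in CD26+ cells of each sheep, as did 27.6% of all probes. CD1 stood at 1.78, CD86 at 1.11, CD80 at 0.54 and CD40 at 0.46. The CD1B probe, too dim to be tested, was lower, at -0.25 in sheep 30066 and -0.66 in sheep 10081. Among the 6 T cell markers tested, 2 stood higher and 3 lower in CD26+ cells of each sheep. The other lists had at most 2 tested markers, of which the NK cell marker GNLY had a value of -4.89 in CD26- and -1.82 in CD26+ cells of sheep 30066. This GNLY probe had no value in CD26- cells of sheep 10081. Its difference in sheep 30066, 3.07, was 0.92 with the background model on all spots. Other GNLY probes had differences of 0.78, 1.11 and 1.05. COL1A1 and COL3A1 of stroma stood at -0.09 and -0.07, TBX21 at 0.14, and the erythroid HBB at 0.06, while 0 of 4 B cell markers were named. The direction of CD1, CD86, CD80, CD40, CD14, FABP5, CD247 and CD5 in both sheep held under the 8 ways of processing. That of the other tested markers turned in 1 or both sheep under at least 1 of them, LYZ and GNLY aside.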

How the data were processed

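RNA of 5 sheep lymph DC samples was measured on 2-colour Agilent arrays. Per the file headers, the scanner software gave each spot a raw linear intensity in both dyes, a local background and a log10 ratio of processed signals. The authors also deposited a log2 ratio per spot, which equalled the scanner's log10 ratio turned to Cy3 over Cy5 within 5e-10. Its column medians were -0.068 to 0.015, and whether the authors centred it further is not given in the sources used here.

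Mean signals were background corrected with normexp (offset 50), fitted without the 0 to 9 spots per array whose background exceeded 5 times the median, loess normalised within arrays and not scaled between them (limma 3.58.1, R 4.3.3). The 536 control spots and 49 to 157 outlier-flagged spots per array were left out, and spots of a probe averaged. Median Cy3 signals were 204 to 307 units over a background of 36.5 to 39. A probe was tested if its Cy3 signal was well above background on 2 or more arrays (13264, with 1744 left out). The limma fit had 3 group means, 2 residual and 2.36 prior degrees of freedom, and a call needed a Benjamini-Hochberg adjusted p below 0.05. The script recovered the direction of simulated differences.

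Genes were named from the files and RefSeq (1413 probes). A gene outside IL1A is represented by its probe of highest mean intensity, as is IL1A where 1 value is given. Named were every member probe, every measured gene of the pathway and marker lists, and the 5 genes nearest to each member. The members, lists and background rule were chosen with earlier results of these data known. The labels pair the subsets by animal, and the deviations of paired arrays correlated (r = 0.33). The sheep as a block, other background, normalisation and filter settings, and leaving out each array were tried. Figures were drawn with matplotlib 3.10.9.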

Additional observations from a re-analysis of the deposited data

Results flagged for a closer look

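The difference of IL1A between CD26+ and CD26- cells, 1.75 on the log2 scale, was singled out because the subsets lay on opposite sides of total DC. Less the self-hybridisation, the first IL1A probe stood at 0.02 and 0.10 in CD26+ cells of sheep 30066 and 10081 and at -1.91 and -1.48 in CD26- cells. The difference was not tested, because it is the one that chose the gene. The CD26+ values are close to 0, and those of the second probe, -0.22 and 0.12, lie on both sides of it.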

How the results depend on the processing

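0 probes passed under every alternative run, in all 3 comparisons. With the sheep as a replicate block (paired arrays), the difference between the subsets was 1.75 (SE 0.31) for IL1A and -1.96 (SE 0.38) for IL1B, and the block changed no call. The IL1A difference was 1.49 with median centring, 1.03 with the background model on all spots and 1.36 with scaling between arrays. Leaving out 1 array gave 1.54 to 1.97 for IL1A and -2.73 to -1.20 for IL1B. IL1A in CD26+ cells against total DC turned from 0.06 to -0.16 with median centring, -0.051 with the second probe and -0.066 with the scanner's processed signals, and the cause was not tested. Median centring moved the median of all probes against total DC to -0.26 in CD26+ and -0.23 in CD26- cells, so values against total DC are relative to that shift. The other values of the members against total DC kept their sign, though IL1A in CD26- cells moved from -1.69 to -0.95 with the model on all spots and -0.98 with scaling, and IL1B from -1.80 to -1.19 with scaling, with limma adjusted p of 0.126 to 0.527 for IL1B in CD26+ cells, 0.255 to 1 for IL1A and 0.274 to 1 for IL1B in CD26- cells. The median of the pathway list between the subsets was -0.24 with median centring or with median spot signals, -0.27 without background subtraction, -0.18 with the model on all spots, -0.33 with an offset of 10, -0.20 with scaling, -0.28 with the scanner's signals, and -0.23 to -0.15 with 1 array left out. For CD26- cells against total DC it was -0.27 with median centring, 0.10 with the model on all spots, 0.19 with an offset of 10, 0.41 with scaling, -0.10 with the scanner's signals and 0.17 to 0.22 with 1 array left out. For CD26+ cells it was -0.37 with median centring, 0.15 with scaling, -0.13 with the scanner's signals and -0.30 to 0.13 with 1 array left out. IL1B has 1 probe, so no second probe could be tried. With 2 sheep a subset, 1 slide and 1 self-hybridisation, a lone array was assumed to vary like the others. This held for the self-hybridisation in every fit with total DC, and for a subset where 1 of its arrays was left out.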
